A study of Mus musculus with 12 samples.

Results

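The 10 Bcl2 family genes Bcl2, Bcl2l1, Mcl1, Bcl2l11, Bax, Bak1, Bid, Bbc3, Pmaip1 and Bmf were followed in whole mouse pancreas, 4 h into an injection series of cerulein or saline. They were found by symbol among the 49585 Ensembl genes listed for each library, and all 10 were present and had enough counts to be tested. Cerulein is an analogue of the hormone cholecystokinin that overstimulates acinar cells and is used to cause acute pancreatitis in rodents. Each group holds 3 animals of 2 to 4 months, with 1 library an animal and 4 injections of 50 ug/kg cerulein or of saline. The groups are a congenic Atf3-/- line given cerulein (libraries C2, C3 and L4), C57Bl6 controls given cerulein (O1, O3 and N3), the congenic line given saline (S1, K4 and Q1) and C57Bl6 controls given saline (W1, K5 and R3). The C57Bl6 controls are called wild type here.

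Total counts ran from 18292997 to 32158629 a library. Atf3, a stress-induced transcription factor and the gene targeted in the congenic line, had 1375, 20.7 and 1636 CPM (counts scaled to a common library total, on library sizes adjusted by edgeR's TMM factors) in C2, C3 and L4, and 394 to 775 CPM in the wild-type cerulein libraries. It had 7.44 to 23.1 CPM in the Atf3-/- saline libraries and 1.13 to 5.28 CPM in wild-type saline. The libraries of the Atf3-/- label thus show no lower Atf3, and the line is called labelled knockout below. C3, labelled as cerulein, was close to the saline libraries in Atf3 and in most family genes, so the tests of the 10 genes between cerulein and saline are given with all 12 libraries and with C3 left out. Because C3 was set apart by values of the genes tested, tests without it are not independent of that choice. By edgeR every call in the labelled knockout rests on it. The acinar markers Pnlip and Ctrb1 had at least 53710 and 51170 CPM in every library.

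The BCL2 family decides whether the mitochondrial outer membrane stays closed. BAX and BAK1 are the effectors that open it and release cytochrome c, the anti-apoptotic proteins BCL2, BCL-xL (from Bcl2l1) and MCL1 hold them in check, and the BH3-only proteins BIM (Bcl2l11), BID, PUMA (Bbc3), NOXA (Pmaip1) and BMF either block the guards or activate the effectors. Several are controlled by transcription, and MCL1 is also short-lived as a protein. In pancreatitis the acinar cell can die by apoptosis or by necrosis.

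The 250 bases before a RefSeq transcription start are shown for the 4 genes called between cerulein and saline in wild type with C3 left out. Mcl1 and Bcl2l1 were higher, and Bcl2 and Bmf were lower. The sequences are from RefSeq on GRCm38.p6 and run 5′ to 3′ on the strand of the gene. Capitals mark matches to CCAAT, the box bound by the factor NF-Y, on either strand (ATTGG on the other).
Mcl1, chr3:95658471-95658720, plus strand: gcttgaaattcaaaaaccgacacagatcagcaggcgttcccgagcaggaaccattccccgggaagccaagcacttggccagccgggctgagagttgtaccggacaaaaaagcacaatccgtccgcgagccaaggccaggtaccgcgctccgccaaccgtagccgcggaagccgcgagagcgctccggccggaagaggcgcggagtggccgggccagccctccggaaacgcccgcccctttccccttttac
Bcl2l1, chr2:152831729-152831978, minus strand: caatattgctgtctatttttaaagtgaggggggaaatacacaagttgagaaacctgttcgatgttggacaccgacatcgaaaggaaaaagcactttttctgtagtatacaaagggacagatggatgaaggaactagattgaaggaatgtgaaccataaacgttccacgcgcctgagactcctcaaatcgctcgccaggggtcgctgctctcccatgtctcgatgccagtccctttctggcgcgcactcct
Bcl2, chr1:106714291-106714540, minus strand: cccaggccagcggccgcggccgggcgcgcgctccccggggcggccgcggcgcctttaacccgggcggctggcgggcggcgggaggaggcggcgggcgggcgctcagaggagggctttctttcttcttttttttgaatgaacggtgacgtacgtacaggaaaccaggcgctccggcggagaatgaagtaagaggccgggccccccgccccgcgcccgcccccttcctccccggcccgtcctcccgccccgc
Bmf, chr2:118549687-118549936, minus strand: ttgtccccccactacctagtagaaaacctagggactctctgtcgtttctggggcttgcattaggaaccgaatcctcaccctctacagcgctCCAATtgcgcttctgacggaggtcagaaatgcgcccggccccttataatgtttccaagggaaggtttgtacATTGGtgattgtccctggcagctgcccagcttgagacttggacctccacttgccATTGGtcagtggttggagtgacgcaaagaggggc

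The Bmf window held 3 CCAAT matches, whose first bases lie at -159, -88 and -34 (-1 is the base before the start), and the windows of Mcl1, Bcl2l1 and Bcl2 held none. The RefSeq table had 16 windows for 9 of the 10 genes, with 3 each for Bcl2l1 and Bmf, of which 1 each is shown. CCAAT was found in 5 of these 16, from Bmf, Bcl2l11 and Bbc3, and in 33.8% of all 32851 windows of the same length. The CRE site TGACGTCA, the AP-1 site TGANTCA and the composite site TGATGNAA bound by C/EBP and ATF dimers, each searched on both strands, were in none of the 16 windows. They occurred in 1.55%, 6.75% and 3.45% of all windows, and no match says only that these letters are not in the 250 bases.

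Among the anti-apoptotic genes, cerulein raised Mcl1 and Bcl2l1 and lowered Bcl2. In wild type Mcl1 was higher by 1.38 ± 0.24 (log2 fold change ± SE) and Bcl2l1 by 2.49 ± 0.57, while Bcl2 was lower by 1.18 ± 0.44. Bcl2 in wild type missed the threshold over 12 libraries by edgeR and passed with C3 left out. Whole pancreas mixes cell types, so here and in each later value fewer cells of a type and less RNA per cell cannot be told apart.

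Mcl1 (ENSMUSG00000038612, chromosome 3, 95658788 to 95663176, plus strand, GRCm38 here and below) encodes a guard that turns over quickly. It had 329, 364 and 268 CPM in the wild-type cerulein libraries O1, O3 and N3, against 135, 103 and 131 CPM in the wild-type saline libraries W1, K5 and R3. The groups did not overlap. This was a 2.60-fold change with an adjusted p of 0.00918 (edgeR's quasi-likelihood F test, Benjamini-Hochberg adjustment over all genes, threshold 0.05), and 0.000108 with C3 left out. Labelled knockout libraries C2 and L4 had 261 and 254 CPM and C3 had 144 CPM, against 123, 117 and 133 CPM in S1, K4 and Q1. C3 lay just above the saline libraries and far below C2 and L4. The change in the labelled knockout was 0.82 ± 0.24 with an adjusted p of 0.094 over 12 libraries, and 1.05 ± 0.18 with an adjusted p of 0.00147 with C3 left out (edgeR).

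Bcl2l1 (ENSMUSG00000007659, chromosome 2, 152780668 to 152831728, minus strand) gives rise by splicing to the anti-apoptotic BCL-xL and the shorter, pro-apoptotic BCL-xS, which counts per gene cannot tell apart. It had 113, 146 and 82.5 CPM in wild-type cerulein, against 24.7, 15.6 and 20.5 CPM in wild-type saline. The groups did not overlap, and the fold of 5.62 had an adjusted p of 0.0116, or 0.0014 with C3 left out (edgeR). C2 and L4 of the labelled knockout had 166 and 82.3 CPM and C3 had 31.1 CPM, against 41.7, 15.01 and 19.1 CPM in S1, K4 and Q1. C3 fell inside the saline range, and S1 stood above the other two saline libraries. The change was 1.88 ± 0.55 with an adjusted p of 0.0958 over 12 libraries, and 2.30 ± 0.45 with an adjusted p of 0.00433 without C3 (edgeR).

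Bcl2 (ENSMUSG00000057329, chromosome 1, 106538178 to 106714274, minus strand) is the founding guard of the family. It had 1.33, 1.31 and 2.65 CPM in wild-type cerulein, against 4.53, 3.75 and 3.74 CPM in wild-type saline. The ranges did not overlap, and N3 was the highest of the cerulein libraries. The change of -1.18 ± 0.44 had an adjusted p of 0.0652, and 0.0272 with C3 left out (edgeR). That adjusted p passed 0.05, to at most 0.0988, when W1, K5, R3, O1 or O3 was left out as well. With C3 kept, Bcl2 passed by DESeq2 (adjusted p 0.0397), with only the 2 groups in the model (0.0349, edgeR) and without N3 (0.0365, edgeR). Bcl2 in the labelled knockout had 0.76 and 1.17 CPM in C2 and L4 and 2.30 CPM in C3, against 2.09, 4.77 and 3.93 CPM in saline. The change was -1.36 ± 0.45 with an adjusted p of 0.116 over 12 libraries. Without C3 it was -1.88 ± 0.44 with an adjusted p of 0.00864, which became 0.0657 without C2 as well (edgeR). The exons of D630008O14Rik, an antisense gene, overlap Bcl2, and the strand setting of the counting is not given, so reads of the 2 genes may be mixed.

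**Figure D1:**
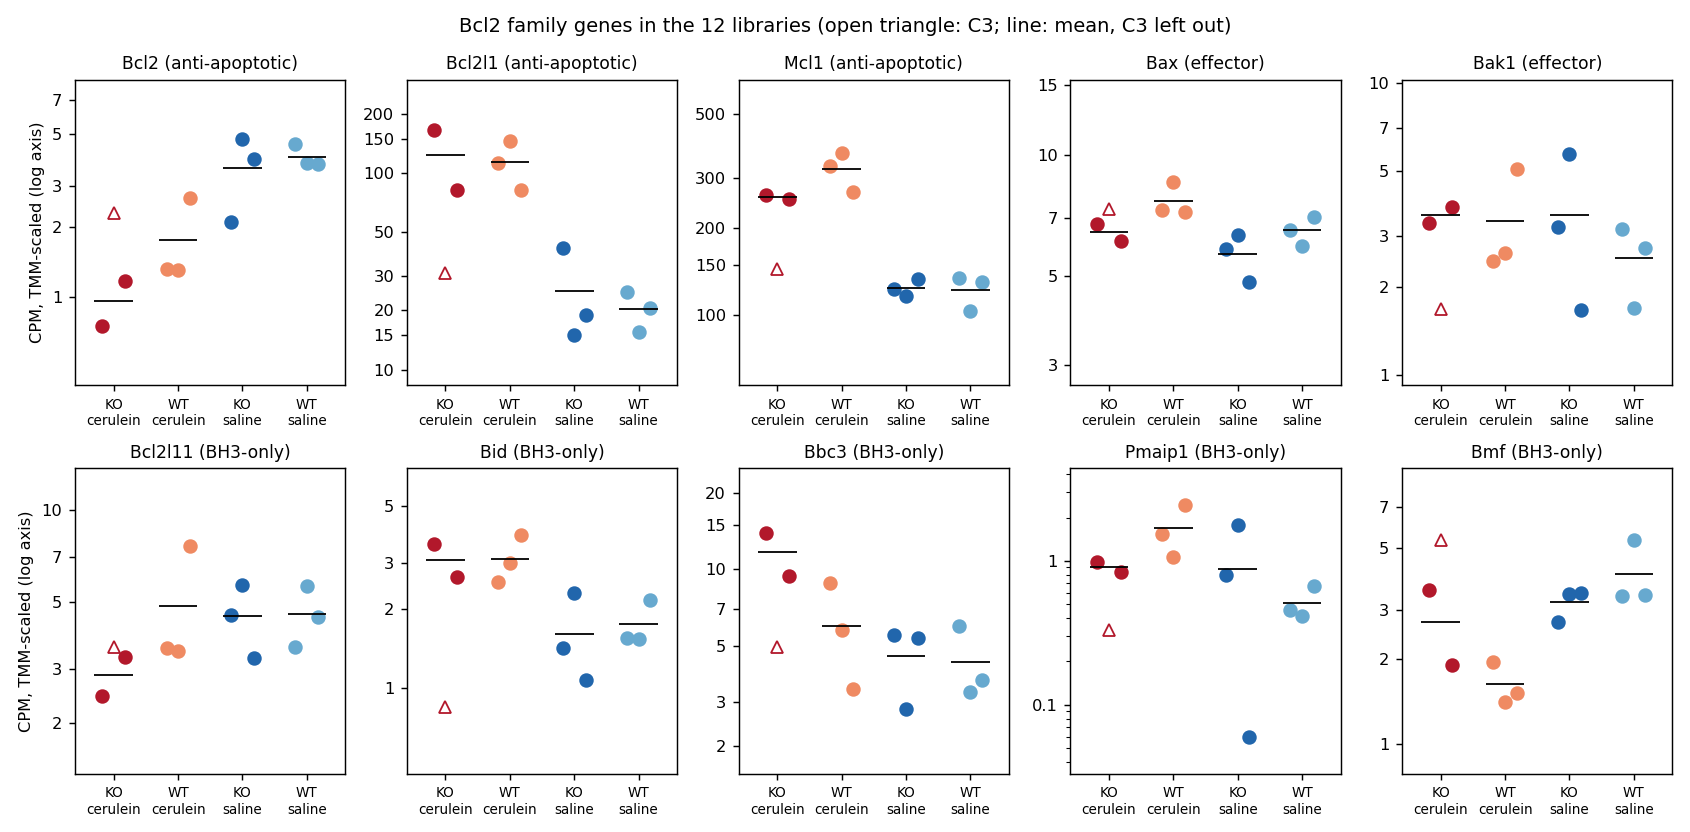
CPM on TMM-scaled library sizes (log axis) of the 10 genes in each library, by group from labelled knockout (KO) with cerulein to wild type (WT) with saline. Each point is 1 animal, the open triangle is C3 and the line is the mean with C3 left out. Mcl1 sits between 254 and 364 CPM in the 5 cerulein libraries other than C3 and between 103 and 135 CPM in the 6 saline libraries.

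The effectors did not pass the test in either genotype. Bax (ENSMUSG00000003873, chromosome 7, 45461697 to 45466898, minus strand), which moves from the cytosol into the mitochondrial membrane when activated, had the narrowest range of the 10 genes over the 12 libraries, taken as highest over lowest. It had 7.29, 8.57 and 7.22 CPM in wild-type cerulein, against 6.53, 5.96 and 7.01 CPM in wild-type saline. The ranges just missed each other, and the change was 0.24 ± 0.17 with an adjusted p of 0.29 (edgeR). For the labelled knockout Bax had 6.76, 7.36 and 6.12 CPM in C2, C3 and L4, against 5.86, 6.32 and 4.83 CPM in saline, which overlap, with a change of 0.25 ± 0.17 (adjusted p 0.366), or 0.18 ± 0.17 without C3 (adjusted p 0.465, edgeR). Gm45808 shares exons and strand with Bax, so reads in the shared part cannot be assigned to either.

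Bak1 (ENSMUSG00000057789, chromosome 17, 27019810 to 27029009, minus strand), the effector that resides in the membrane, had 2.47, 2.61 and 5.06 CPM in wild-type cerulein, against 3.17, 1.70 and 2.72 CPM in wild-type saline. It had 3.32, 1.69 and 3.78 CPM in C2, C3 and L4, against 3.22, 5.70 and 1.67 CPM in labelled knockout saline. Its highest values were in N3 and K4, 1 library of each treatment, and the groups overlapped in both genotypes. The change was -0.27 ± 0.47 in the labelled knockout (adjusted p 0.739) and 0.42 ± 0.48 in wild type (adjusted p 0.534, edgeR), over 12 libraries. Without C3 it was 0.0029 ± 0.48 in the labelled knockout (adjusted p 0.997, edgeR). Bak1 overlaps exons of Ggnbp1 on the opposite strand.

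The BH3-only genes did not move as a group. Bmf was lower with cerulein in wild type, Bbc3 was higher with cerulein in the labelled knockout once C3 was left out, and Bcl2l11, Bid and Pmaip1 did not pass the test in either genotype, over 12 libraries or without C3.

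Bmf (ENSMUSG00000040093, chromosome 2, 118528757 to 118549687, minus strand), whose protein is held on an actin-based motor by dynein light chain 2, had 1.95, 1.40 and 1.52 CPM in wild-type cerulein, against 3.36, 5.34 and 3.39 CPM in wild-type saline. The groups did not overlap, and the change was -1.30 ± 0.36 with an adjusted p of 0.0209, or 0.00576 with C3 left out (edgeR). Over 12 libraries the adjusted p passed 0.05, to at most 0.0834, when K5, O3 or N3 was left out. Bmf in the labelled knockout had 3.55, 5.35 and 1.90 CPM in C2, C3 and L4, against 2.72, 3.43 and 3.46 CPM in saline. The cerulein libraries lay on both sides of the saline range. The change there was 0.16 ± 0.35 over 12 libraries (adjusted p 0.79) and -0.24 ± 0.33 without C3 (adjusted p 0.621, edgeR), so its sign depends on C3.

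Bbc3 (ENSMUSG00000002083, chromosome 7, 16308393 to 16318205, plus strand) encodes PUMA, a target of p53 and of stress-induced factors. It had 13.9 and 9.45 CPM in C2 and L4 and 4.92 CPM in C3, against 5.53, 2.81 and 5.36 CPM in labelled knockout saline. C2 and L4 were above all saline libraries and C3 was among them. The change was 1.05 ± 0.45 with an adjusted p of 0.2 over 12 libraries, and 1.36 ± 0.42 with an adjusted p of 0.0345 without C3 (edgeR). That call rests on each of the 5 labelled knockout libraries, since the adjusted p passed 0.05, to at most 0.195, when S1, K4, Q1, C2 or L4 was left out besides C3. It held with each of the 6 wild-type libraries left out. In wild type Bbc3 had 8.80, 5.76 and 3.36 CPM with cerulein, against 5.95, 3.29 and 3.66 CPM with saline, a change of 0.48 ± 0.45 with an adjusted p of 0.448 (edgeR).

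Bcl2l11 (ENSMUSG00000027381, chromosome 2, 128126038 to 128162547, plus strand), which encodes BIM, had 3.54, 3.44 and 7.61 CPM in wild-type cerulein, against 3.56, 5.65 and 4.45 CPM in wild-type saline. The labelled knockout libraries had 2.45, 3.56 and 3.31 CPM in C2, C3 and L4, against 4.52, 5.66 and 3.28 CPM in saline. N3 was the highest of the 12 libraries and the groups overlapped. The change was 0.10 ± 0.34 in wild type (adjusted p 0.858) and became -0.38 without N3, still short of the threshold (edgeR). For the labelled knockout it was -0.53 ± 0.34 with an adjusted p of 0.353, and -0.64 ± 0.38 with an adjusted p of 0.242 without C3 (edgeR).

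Bid (ENSMUSG00000004446, chromosome 6, 120891930 to 120916853, minus strand), which links death receptors to mitochondria once caspase-8 has cut its protein, had 2.54, 3.001 and 3.86 CPM in wild-type cerulein, against 1.55, 1.54 and 2.17 CPM in wild-type saline. The groups did not overlap, but the change of 0.83 ± 0.46 had an adjusted p of 0.191, and 0.0594 without C3 (edgeR). Bid in the labelled knockout had 3.55, 0.84 and 2.66 CPM in C2, C3 and L4, against 1.42, 2.32 and 1.07 CPM in saline, and C3 was the lowest of all. Bid passed in wild type with only the 2 groups in the model (adjusted p 0.0466) or without C3 and either K4 (0.0338) or Q1 (0.0452), and in the labelled knockout without C3 and K4 (0.0236, edgeR). The change in the labelled knockout was 0.55 ± 0.46 with an adjusted p of 0.467 over 12 libraries, and 0.94 ± 0.34 with an adjusted p of 0.0624 without C3 (edgeR). Bcl2l13, itself a relative of the family, overlaps exons of Bid on the opposite strand.

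Pmaip1 (ENSMUSG00000024521, chromosome 18, plus strand) encodes NOXA, a BH3-only protein that binds MCL1, and had few counts. It had 42, 22 and 69 counts in O1, O3 and N3, against 7, 8 and 17 counts in W1, K5 and R3, or 1.55, 1.06 and 2.44 CPM against 0.45, 0.41 and 0.67 CPM. The change of 1.70 ± 0.78 had an adjusted p of 0.118 (edgeR), although the groups did not overlap. The labelled knockout had 26, 7 and 32 counts in C2, C3 and L4, against 19, 40 and 1 counts in S1, K4 and Q1. The saline libraries alone spanned 0.06 to 1.78 CPM, wider than the cerulein libraries, and the change was -0.31 ± 0.75 with an adjusted p of 0.817, or 0.018 ± 0.79 with an adjusted p of 0.988 without C3 (edgeR). In wild type Pmaip1 passed without Q1 (adjusted p 0.0368) and with only the 2 groups in the model (0.0179, edgeR). Of the genes that missed the threshold in wild type, Bax, Bak1, Bbc3, Bcl2l11 and Pmaip1 had adjusted p-values of 0.0945 (Pmaip1) to 0.856 (Bcl2l11) with C3 left out (edgeR).

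In wild type, 2 of the 10 genes were called higher with cerulein, against 17.9% of all 14329 genes tested, and 1 was called lower, against 12.8% of all genes. With C3 left out these were 2 higher and 2 lower, against 21.3% and 16.6% of 14733 genes. The ranges of the cerulein and saline libraries did not overlap for 7 of the 10 genes, 5 higher and 2 lower, where 52.3% of all genes did not overlap. The median log2 change of the 10 genes was 0.45, against 0.05 for all genes. The family's shares are near those of all genes, so the share of members called is not a result about the family.

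In the labelled knockout no member passed over 12 libraries by edgeR, where 0% of all genes passed, and 4 members had an unadjusted p under 0.05, where 3256 of all genes did. DESeq2 called Mcl1, Bcl2l1 and Bcl2 among its 1359 genes in the same libraries, and limma-voom called no gene. Mcl1 was the 1 member whose ranges did not overlap, where 15.8% of all genes did not. With C3 left out 3 members were called higher, against 18.7% of all genes, and 1 lower, against 10.5%. Ranges then did not overlap for 5 members, 4 higher and 1 lower, and for 52.4% of all genes. With scaling factors computed without the 50 most abundant genes, the genes called in the labelled knockout without C3 split into 2331 higher and 2048 lower instead of 2756 and 1550, and the median of all genes was -0.12. The same 4 members were called under that scaling.

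**Figure D2:**
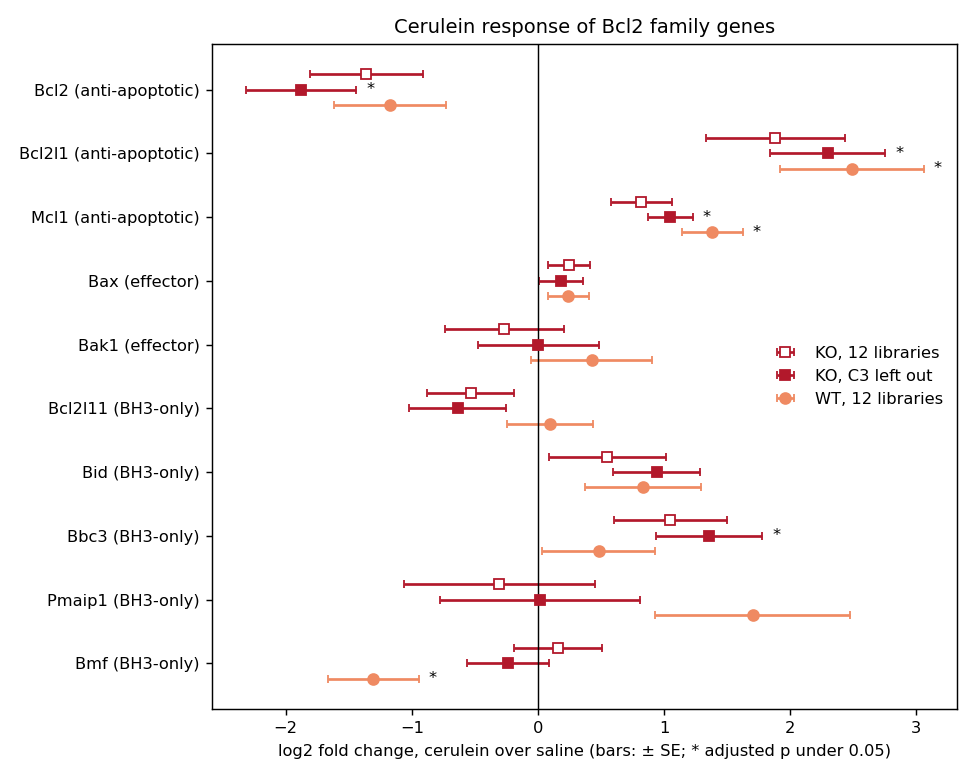
log2 fold change of cerulein over saline for each gene, with bars of 1 SE, in the labelled knockout (KO) over 12 libraries and with C3 left out, and in wild type (WT) over 12 libraries. A star marks an adjusted p under 0.05. Bars and stars with C3 left out come from a different fit than those over 12 libraries. Bcl2l1 lies at 2.30 in KO without C3 and at 2.49 in WT, and Bmf at -0.24 and -1.30.

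The comparison of genotypes asks whether the line labelled Atf3-/- differs in these genes. No member passed between labelled knockout and wild type in saline, where 0% of all genes passed by edgeR with 12 libraries and without C3. Estimates in saline ran from -0.33 for Bmf to 0.79 for Pmaip1, each with an adjusted p of 1, and no member had an unadjusted p under 0.05. DESeq2 and limma-voom called 0 genes there as well. In cerulein no member passed either, with 0% of all genes called by edgeR with and without C3. There 2 members had an unadjusted p under 0.05 over 12 libraries, where 1146 of all 14329 genes did (edgeR). They were Bmf (1.13 ± 0.36, adjusted p 0.604) and Mcl1 (-0.54 ± 0.24, adjusted p 0.607, edgeR). Without C3 the 2 were Bmf (0.74 ± 0.32, adjusted p 0.974) and Bbc3 (0.96 ± 0.42, adjusted p 0.974, edgeR), where 747 of 14733 genes had such a p. Mcl1 was then at -0.31 ± 0.18 with an unadjusted p of 0.113 (edgeR). DESeq2 called 11 genes between the genotypes in cerulein over 12 libraries, none of them a member.

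The difference of the cerulein responses, labelled knockout minus wild type, passed for no member and for 0% of all genes by edgeR, with 12 libraries and without C3. DESeq2 called 1 gene over 12 libraries, which was no member, and limma-voom none. An unadjusted p under 0.05 was seen for 594 of all 14329 genes over 12 libraries and for 508 of 14733 without C3 (edgeR). Of the members, Bmf alone had one, with a difference of 1.47 ± 0.50, an unadjusted p of 0.0135 and an adjusted p of 0.812. Without C3 that difference was 1.07 ± 0.44 with an unadjusted p of 0.0329 and an adjusted p of 0.999 (edgeR). Mcl1 (-0.56 ± 0.34), Bcl2l1 (-0.61 ± 0.76) and Bbc3 (0.57 ± 0.63) did not pass over 12 libraries. Without C3 their differences were -0.33 ± 0.24, -0.19 ± 0.61 and 0.87 ± 0.58, and none passed (edgeR). The size of these estimates thus depends on C3. So the calls for Bmf in wild type and for Bbc3 in the labelled knockout are not shown to differ between the genotypes. Each group holds 3 animals, and no batch, sex or litter is given in the labels.

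Levels were compared between genes per length, as TPM from the merged exons of each gene. Mcl1 led the family in each group, with 118 ± 50.5 TPM in labelled knockout cerulein (147 ± 8.28 without C3, n = 2), 178 ± 3.96 in wild-type cerulein, 52.8 ± 5.89 in labelled knockout saline and 52.1 ± 7.05 in wild-type saline (SD, n = 3). Bcl2l1 came next, with 37.8 ± 28.7 (51.9 ± 21.2 without C3), 46.5 ± 6.55, 7.85 ± 4.19 and 6.35 ± 1.10 TPM in the same order of groups. In saline Bcl2l1 and Bax overlapped in range (Bax at 5.32 ± 1.59 TPM in labelled knockout and 5.996 ± 0.790 in wild type), and in wild-type cerulein they did not (Bax at 9.32 ± 0.73 TPM). Bbc3 and Bak1 came after Bax except in labelled knockout cerulein, where Bbc3 stood above it at 8.18 ± 4.48 TPM with ranges that overlap. Without C3 Bbc3 was at 10.6 ± 2.07 TPM there and Bax at 7.95 ± 0.046 TPM (SD, n = 2), and the ranges did not overlap. Bid, Bmf, Bcl2l11, Pmaip1 and Bcl2 were all below 2 TPM in group mean, and most neighbours among them overlapped.

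The share of each gene in the summed TPM of the 10 does not depend on the scaling of a library. The 3 anti-apoptotic genes made up 88.6% and 88.7% of the sum in C2 and L4 and 83.8% in C3, and 91.1%, 92.5% and 89.4% in O1, O3 and N3. In the saline libraries they made up 82.8%, 78.6% and 85.1% in S1, K4 and Q1, and 82.0%, 80.3% and 82.2% in W1, K5 and R3. The 5 cerulein libraries other than C3 were thus above all 6 saline libraries, and C3 was among the saline libraries. Mcl1 itself held 71.2% to 72.5% of the sum in wild-type cerulein and 71.3% to 72.9% in wild-type saline. The larger anti-apoptotic share came with Bcl2l1, at 16.6% to 21.3% in wild-type cerulein and 8.01% to 9.76% in wild-type saline. In C2, L4 and C3 Bcl2l1 held 28.5%, 17.3% and 11.5%, against 16.6%, 6.76% and 8.10% in S1, K4 and Q1.

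The 5 BH3-only genes together made up 6.98%, 6.03% and 7.03% of the sum in C2, L4 and C3, against 7.63% to 8.23% in labelled knockout saline. In wild type they made up 3.11% to 4.70% with cerulein, against 7.19% to 9.09% with saline. The summed level of the family was 235 and 214 TPM in C2 and L4 and 83.6 TPM in C3, and 240 to 251 TPM in wild-type cerulein. In saline it was 63.8 to 84.1 TPM in the labelled knockout and 63.6 to 81.5 TPM in wild type. TPM rises for all other genes when the most abundant ones take less of a library, and the top 10 genes took 44.6% to 46.8% of the counts in the cerulein libraries other than C3 and 53.0% to 57.6% in saline.

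**Figure D3:**
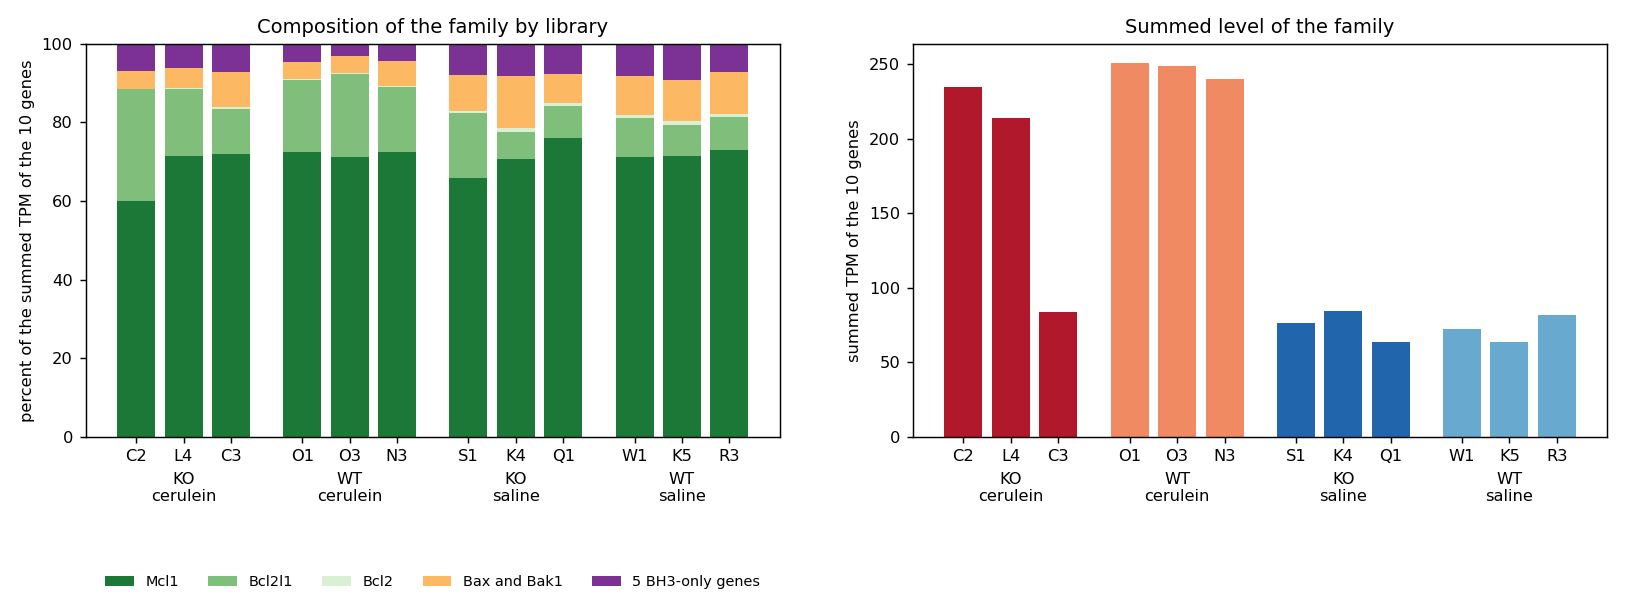
Left, percent of the summed TPM of the 10 genes held by Mcl1, Bcl2l1, Bcl2, the 2 effectors and the 5 BH3-only genes in each library. Right, the summed TPM by library, coloured by group. Mcl1 holds 60.0% to 76.1% in the 12 libraries, and the summed level is 214 to 251 TPM in the cerulein libraries other than C3, 83.6 TPM in C3 and at most 84.1 TPM in saline.

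Other genes of the pathway were read from 8 lists with 70 genes, of which 63 were tested over 12 libraries and 65 without C3. Over 12 libraries none was called in the labelled knockout by edgeR or limma-voom and 11 by DESeq2. Of the 63, 16 had an unadjusted p under 0.05 there (edgeR), where 3256 of all 14329 genes did. In wild type over 12 libraries 16 of the 63 were higher and 7 lower. Without C3, 19 of the 65 were higher and 8 lower in the labelled knockout, and 22 were higher and 9 lower in wild type. Without C3 these are 29.2% and 12.3% in the labelled knockout, against 18.7% and 10.5% of all genes, and 33.9% and 13.9% in wild type, against 21.3% and 16.6% of all genes. Over 12 libraries they are 25.4% and 11.1% in wild type, against 17.9% and 12.8% of all genes. No list gene passed in the difference of responses by edgeR, DESeq2 or limma-voom over 12 libraries. There 4 had an unadjusted p under 0.05, where 594 of all genes did (edgeR). Values given next for the labelled knockout leave out C3 and those for wild type use 12 libraries. Their SEs thus come from different fits and do not compare the precision of the genotypes. Over 12 libraries the lowest adjusted p of a named list gene in the labelled knockout was 0.086 (edgeR).

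Upstream of the family, 6 of 12 transcription factors known to act on its genes were higher with cerulein in wild type over 12 libraries. Without C3 these were 8 of 12 in wild type and 7 of 12 in the labelled knockout. None was called lower in any of these. Jun, a part of AP-1, changed by 2.52 ± 0.38 in the labelled knockout without C3 (adjusted p 0.000838) and by 2.65 ± 0.59 in wild type (adjusted p 0.0111, edgeR). Srf, the serum response factor, changed by 2.75 ± 0.17 in the labelled knockout without C3 and 2.54 ± 0.54 in wild type (2.545 ± 0.16 without C3). Atf4, the effector of the integrated stress response, changed by 1.87 ± 0.27 in the labelled knockout without C3 and 1.87 ± 0.41 in wild type. Among 9 death receptor and necroptosis genes, 4 were higher and 1 lower in the labelled knockout without C3, and 4 higher and 1 lower in wild type. Over 12 libraries none of the 9 was called in the labelled knockout (edgeR). Tnfrsf12a, the receptor of TWEAK, changed by 4.69 ± 0.36 in the labelled knockout without C3 and 5.35 ± 0.98 in wild type (5.36 ± 0.36 without C3). It had 134 to 156 CPM in C2 and L4 and 4.97 CPM in C3, and 126 to 216 CPM in wild-type cerulein, against 4.11 to 6.74 CPM in labelled knockout saline and 2.83 to 6.60 CPM in wild-type saline. Tnfrsf10b, the mouse TRAIL receptor, and Tnfrsf1a, the TNF receptor, also rose, and Fadd, the adaptor that joins such receptors to caspase-8, fell by 1.24 ± 0.39 in wild type (adjusted p 0.0352, edgeR).

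Downstream, 1 of 12 apoptosome and caspase genes was higher and 2 lower in wild type. Cycs, which encodes cytochrome c, changed by 0.92 ± 0.19 (adjusted p 0.00926), Casp2 by -1.28 ± 0.42 (adjusted p 0.0407) and Aifm1, an oxidoreductase of the mitochondrial intermembrane space, by -0.88 ± 0.26 (adjusted p 0.0261, edgeR). In the labelled knockout without C3, Cycs changed by 0.83 ± 0.14, Casp2 by -1.58 ± 0.26 and Aifm1 by -1.11 ± 0.14. None of 6 caspase inhibitors passed in either genotype. Of these Cflar, which encodes FLIP, had 20.96 to 42.7 CPM in wild-type cerulein, against 18.5 to 23.9 CPM in wild-type saline.

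Genes listed for their action on the proteins of the family also changed. Of 6 tested genes on the list for MCL1 turnover, 3 were higher and 1 lower in wild type. Huwe1, a ubiquitin ligase for MCL1, changed by 0.89 ± 0.25. Trib1, a pseudokinase that recruits the ubiquitin ligase COP1, changed by 4.47 ± 0.73 (adjusted p 0.00918, edgeR). Whether Trib1 acts on MCL1 was not tested. Btrc, the ligase subunit that recognises MCL1 after GSK3 has marked it, changed by -0.16 ± 0.26 in the labelled knockout without C3 (adjusted p 0.68) and by -1.19 ± 0.24 in wild type (adjusted p 0.00925, edgeR), and the difference of the 2 responses did not pass (adjusted p 0.812 over 12 libraries). The dynein light chains went opposite ways. Dynll2, which holds BMF, changed by -1.22 ± 0.20 in the labelled knockout without C3 and -1.61 ± 0.34 in wild type. Dynll1, which holds BIM, changed by 1.30 ± 0.17 in the labelled knockout without C3 and 1.27 ± 0.27 in wild type. Ywhaz, a 14-3-3 protein that binds phosphorylated BAD, changed by 1.23 ± 0.24 in wild type.

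Of the remaining relatives, none of 5 tested anti-apoptotic genes passed, among them Bcl2l2, which encodes BCL-w, at 33.2 to 56.9 CPM in wild-type cerulein, against 29.1 to 38.0 CPM in wild-type saline. Bnip3 and Bnip3l, mitochondrial receptors for mitophagy with BH3-like stretches, were the 2 of 6 other relatives that passed in wild type. Bnip3 changed by -2.12 ± 0.59 (adjusted p 0.0222) and Bnip3l by -1.03 ± 0.23 (adjusted p 0.0113, edgeR). In the labelled knockout without C3 Bnip3l changed by -0.80 ± 0.14 (adjusted p 0.00177) and Bnip3 by -1.47 ± 0.54 (adjusted p 0.0682, edgeR). Without C3, 8 of these other relatives were tested. In wild type 2 were then higher and 2 lower, and in the labelled knockout 2 were higher and 1 lower (edgeR). Hrk, described at the end, is among the higher genes in both.

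**Figure D4:**
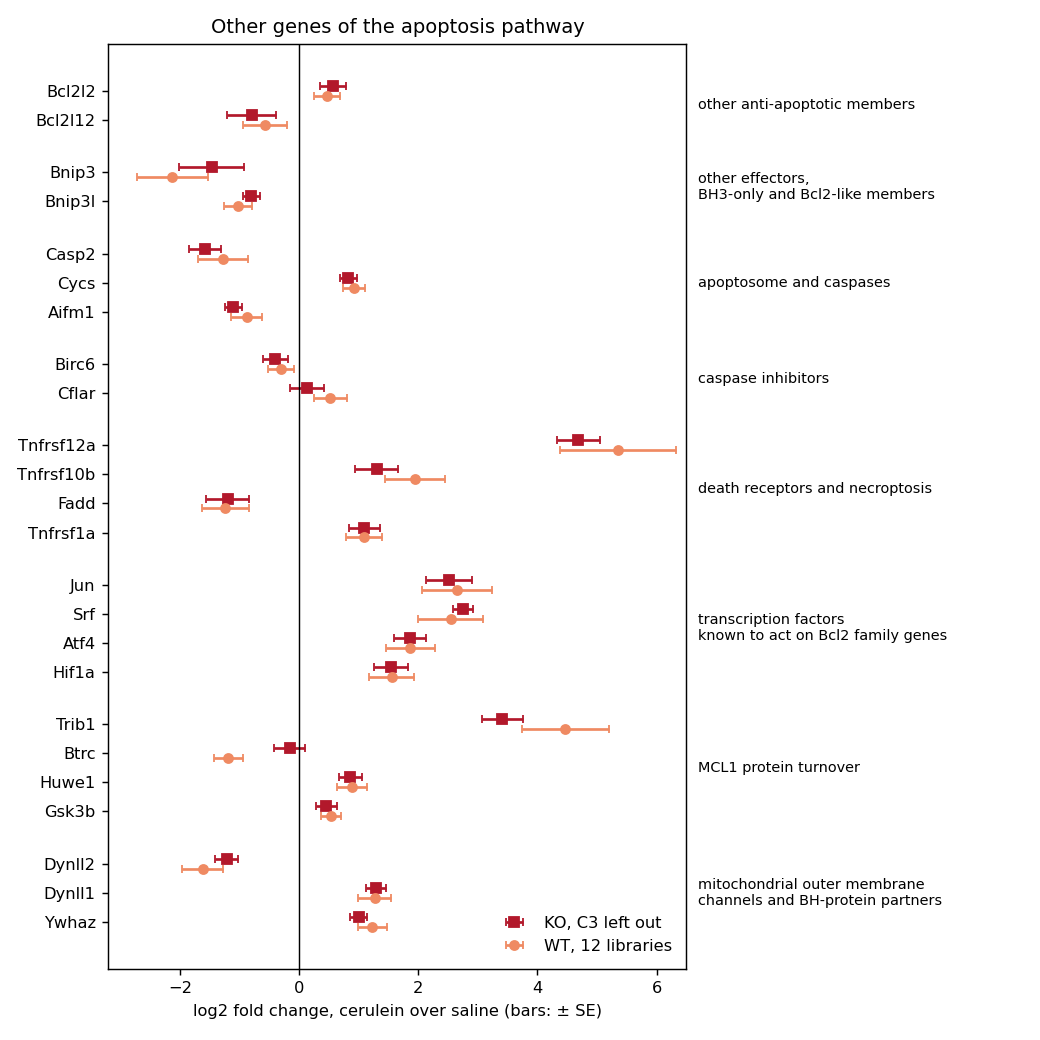
log2 fold change of cerulein over saline, with bars of 1 SE, for the genes named by rule from 8 lists, in the labelled knockout (KO) with C3 left out and in wild type (WT) with 12 libraries. The bars of KO and WT come from different fits. Tnfrsf12a lies at 4.69 and 5.35 and Trib1 at 3.41 and 4.47, and Btrc lies at -0.16 in KO and -1.19 in WT.

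The summed level of 7 duct markers was 322 and 369 CPM in C2 and L4 and 321 to 551 CPM in wild-type cerulein, against 69.5 to 90.4 CPM in labelled knockout saline and 81.1 to 99.2 CPM in wild-type saline. It was 105 CPM in C3. Of the 7 markers 5 were called higher in wild type, where 4 of 10 acinar markers were called lower and none of 7 islet markers passed. Of all genes 17.9% were called higher and 12.8% lower in that comparison. In the labelled knockout without C3, 5 of 7 duct and 3 of 7 islet markers were called higher and 3 of 10 acinar markers lower (edgeR). There 18.7% of all genes were called higher and 10.5% lower. Over 12 libraries none of these markers and 0% of all genes were called in the labelled knockout (edgeR). The 7 islet markers, led by Ins2 and Ins1, summed to 11470 CPM in L4, against 459 to 3585 CPM in the other 11 libraries. Without C3 and L4, Mcl1, Bcl2l1 and Bcl2 were still called in the labelled knockout and Bbc3 had an adjusted p of 0.0573 (edgeR), in a fit where C2, then alone in its group, is assumed to vary like the other groups. Duct markers, Mcl1 and Bcl2l1 were thus each higher in every cerulein library other than C3 than in all saline libraries. Among the cerulein libraries their order differed, with Bcl2l1 at 166 CPM in C2 and 82.3 CPM in L4. The part of duct cells in those results was not tested.

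Libraries N3 and K4 stood apart in markers of leucocytes and fat. The 7 macrophage and monocyte markers, led by Lyz2 and Cd14, summed to 504 CPM in N3, 364 CPM in K4 and 51.7 to 204 CPM in the other libraries. The 9 lymphocyte markers summed to 289 CPM in N3, 147 CPM in K4 and 4.13 to 118 CPM elsewhere. The 6 adipocyte markers summed to 394 and 482 CPM in N3 and K4 and 29.5 to 145 CPM elsewhere. The 7 neutrophil markers summed to 130 and 98.1 CPM in N3 and K4 and 3.52 to 43.5 CPM elsewhere, with Mpo, a granule enzyme, at 0 in all 12 libraries. Bcl2, Bak1, Bcl2l11, Bid and Pmaip1, 5 of the 10 members, were highest in N3 among wild-type cerulein libraries and highest in K4 among labelled knockout saline libraries. Mcl1, Bcl2l1 and Bbc3 were lowest in both. The share of all genes ranked in these ways was not computed, so these counts are not a result about the family.

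Without N3 and K4, Mcl1 and Bcl2l1 remained called in wild type, Bcl2 passed, and Bmf had an adjusted p of 0.0673 (edgeR). Bcl2l11 then changed by -0.43 and Bak1 by -0.03 in wild type. At the other end, C3 and Q1 were the lowest in macrophage and monocyte markers, at 51.7 and 58.3 CPM, and also had the lowest Bak1, Bid and Pmaip1. For Bak1 the margin was small, with 1.69 CPM in C3 and 1.70 CPM in K5. Bcl2 and Bcl2l11 went otherwise and were lowest in C2, at 0.76 and 2.455 CPM, with Bcl2 at 3.93 CPM in Q1. The part of these cells in the results was not tested.

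**Figure D5:**
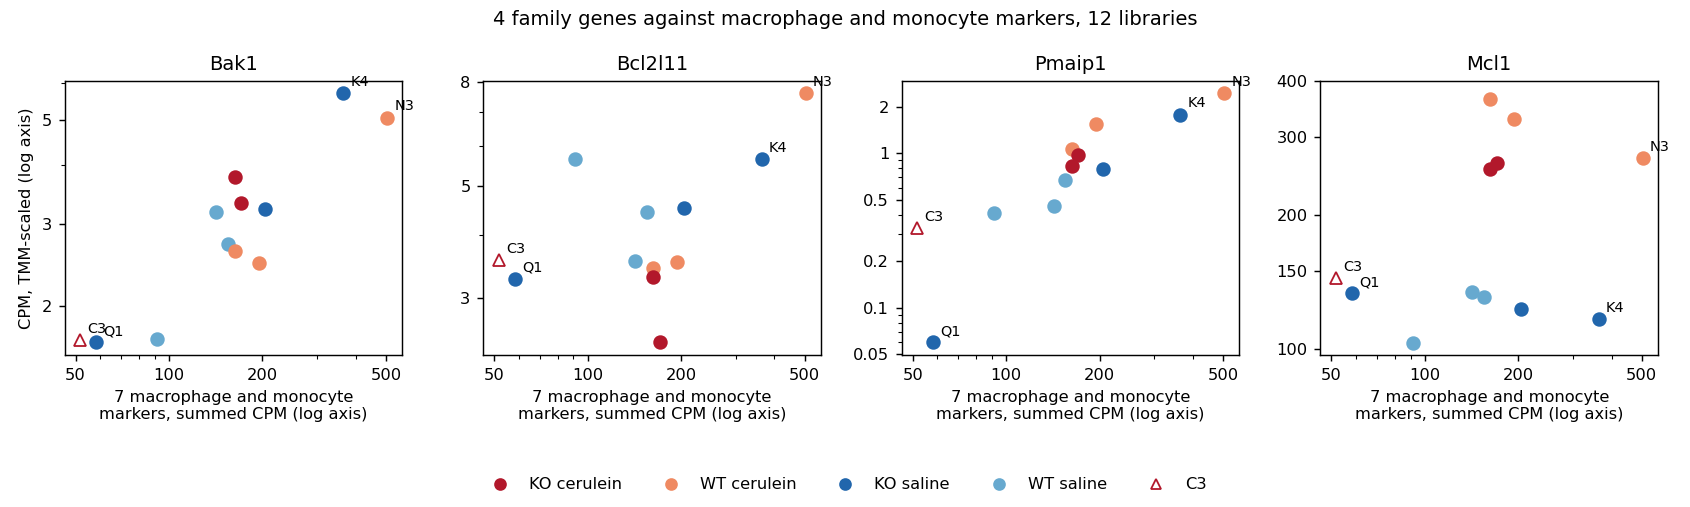
CPM of Bak1, Bcl2l11, Pmaip1 and Mcl1 (log axis) against the summed CPM of 7 macrophage and monocyte markers (log axis), 1 point a library, coloured by group, with C3 as an open triangle. N3 and K4 lie at the right, at 504 and 364 CPM of the markers, and hold the highest Bak1 and Pmaip1, while Mcl1 separates cerulein libraries other than C3 from saline libraries.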

How the data were processed

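RNA of whole pancreas was measured in 12 libraries, 1 for each animal. The deposited values are raw read counts per Ensembl gene with no normalization, from an Illumina stranded total RNA kit, per the labels. HTSeq, DESeq2 and the mm10 build are named in the submitters' processing notes. The aligner, annotation release and strand setting of the counting were not given in the sources used here. Symbols, coordinates and exon lengths came from GENCODE M21 on GRCm38 by gene identifier (49326 of 49585 matched).

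Genes kept by filterByExpr (14329; 14733 without C3) got TMM factors, and 4 group means were fitted with edgeR 4.0.16 (glmQLFit, robust) in R 4.3.3. Tests were two-sided F tests with Benjamini-Hochberg adjustment over all genes and a threshold of 0.05. The SE is the log2 fold change over the square root of F. The biological coefficient of variation was 0.357 (0.304 without C3). DESeq2 1.42.0 and limma 3.58.1 (voom) were alternatives, as were other scalings, filters and samples. Tables and figures used Python 3.11.15, pandas 2.3.3, NumPy 2.4.6 and matplotlib 3.10.9. TPM was computed from the counts and the merged exon length of each gene. The fit was tested on simulated counts with genes changed in wild-type cerulein only. No simulated library stood apart as C3 does, so that test does not cover results that turn on C3.

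The members and lists were chosen with earlier results of these data known. Named genes are Atf3, the members, up to 4 genes past the threshold in wild type with the largest change from each pathway list (the 2 most abundant where none passed), and the 2 most abundant markers of a list. The BH3 motif was not searched, since no protein sequences were used here. Replicates were not paired, since the labels give no shared litter, batch or day.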

Additional observations from a re-analysis of the deposited data

How the results depend on the processing

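The calls for Mcl1 and Bcl2l1 in wild type held with each of the 12 libraries left out in turn and in the 8 other settings, and in the labelled knockout without C3 they held with each further library left out. Over 12 libraries the number of members called in wild type was 6 with only the 2 groups compared in the model, against 3, and 2 to 4 with 1 library left out. In the labelled knockout it was 3 with DESeq2, against 0, and 0 to 4 with 1 library left out, the 4 without C3. With C3 left out, leaving out a further library gave 3 to 6 members in wild type and 2 to 4 in the labelled knockout, the 2 without C2, against 4 in both. Leaving out C3 with a further library, limma-voom and the other TMM factors without C3, and leaving out N3 and K4 were chosen after seeing the data. C3 itself was also set apart for its values.

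Estimates that changed sign belong to genes that did not pass in that comparison. Leaving out N3 and K4 gave -0.025 for Bak1 and -0.43 for Bcl2l11 in wild type, and 0.22 for Bak1 and 0.65 for Pmaip1 in the labelled knockout. With 1 library left out Bcl2l11 in wild type ran from -0.38 to 0.29 over 12 libraries and from -0.39 to 0.29 without C3. In the labelled knockout Bak1 ran from -0.59 to 0.22, Pmaip1 from -0.82 to 0.66 and Bmf from -0.24 to 0.48 over 12 libraries, and Bak1 from -0.32 to 0.51, Pmaip1 from -0.50 to 0.99 and Bmf from -0.75 to 0.16 without C3. limma-voom over 12 libraries gave 0.29 for Pmaip1 and -0.027 for Bmf there. Without C3, DESeq2 gave -0.024 for Bak1, and TMM factors without the 50 most abundant genes gave -0.12 for Bak1 and -0.10 for Pmaip1. Why these changed sign was not tested. Of the other alternatives over 12 libraries 368 kept direction and call, 15 gained a call and 4 lost one. Without C3 these were 252, 4 and 11. Pmaip1 had 1 to 69 counts a library. No paired analysis was possible because each replicate code is used once and the labels do not say that a letter or digit in it marks a shared litter, batch or day.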

Other observations

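Hrk, a further BH3-only gene known mainly from neurons, was named after its values were seen. It had 18, 0 and 25 counts in the labelled knockout cerulein libraries C2, C3 and L4, and 7, 2 and 5 counts in wild-type cerulein. It had 0, 1 and 0 counts in labelled knockout saline and 1, 0 and 0 counts in wild-type saline. It was too low to be tested over 12 libraries. Without C3 it was tested, and it is among the list genes counted above as higher in both genotypes. Its values are given here as a description, without fold or p-value, because they were seen before it was named. Its highest level was 0.68 CPM, in C2.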
